A study of Bos taurus with 16 samples.

Results

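Of 42862 loci listed for adipose tissue and muscle of pre-weaned calves, 129 were abundant at nearly equal mean levels in both tissues. A locus is a gene region built by merging assembled transcripts with the annotation, and it was listed once here even where its counts stood under several Ensembl identifiers. The 129 loci were selected on the measured values. Each has an Ensembl identifier and a mean of at least 100 CPM (counts scaled to a common library total) over the 8 adipose libraries and over the 8 muscle libraries, and its larger mean is at most 1.2 times the smaller. They are 129 of the 722 loci with an Ensembl identifier that reached 100 CPM in both tissues, and the other 593 lay beyond the 1.2-fold limit. The level and the ratio between tissues chose the loci, so both are given as descriptions with no test.

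All calves were Holstein bulls, 21 days old at the start, and drank milk replacer for 10 days with either saline (CON, 4 calves) or 90 mg of 5-hydroxytryptophan a day (5-HTP, 4 calves). 5-HTP is the direct precursor of serotonin. Subcutaneous white adipose tissue (from the region of the pelvis and tail head) and gluteus medius, a rump muscle, were taken after the last day, and poly-A RNA of each tissue of each calf gave 1 library. The calves are numbered 1 to 4 in CON and 5 to 8 in 5-HTP, and every library is a whole piece of tissue, in which a change in the number of cells of a type and a change in RNA per cell cannot be told apart.

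A reference gene is a transcript whose level is taken as constant, so that the amount of other transcripts can be read against it in a quantitative PCR. Genes for ribosomal proteins, the cytoskeleton and glycolysis are commonly used because every cell needs their products, yet many of them change with cell type, growth or feeding state. A useful reference transcript is abundant enough to be counted well, varies little between animals, and does not move with the treatment under study. Equal means in a pair of tissues meet none of these conditions by themselves, and each was therefore examined separately.

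The deposited files list loci by identifier, and the study's supplementary tables pair 31 features with a gene symbol. Among the 129 loci this gave a symbol to 1, EGR1 (ENSBTAG00000010069), the early growth response gene for a zinc finger transcription factor of the immediate early class, which responds to growth factors, stretch and other stimuli within minutes. The other 128 loci are named by identifier, and their functions were not analysed here. Of 19 reference genes in common use, among them ACTB, RPS18, UXT and HPRT1, 0 could be paired with a feature, so none of them was compared with the loci described here. EGR1 is also the locus to which the study assigned a quantitative PCR assay, and its primers are shown because that assay would be read against a reference transcript. The first has 18 bases and the second 20. The second stands under a heading that reads 3′ to 5′ in the source, its direction was not checked here, and the position of either primer in the genome was not analysed here.

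EGR1 forward primer: cagcagcggtagcagcag
EGR1 reverse primer: tggggtaactcgtctccact

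With 1 row per locus, the libraries held 15058963 to 25077800 counts, and a floor of 3 counts corresponded to 0.12 to 0.199 CPM. The 129 loci together took 3.33% to 3.75% of the counts of each library. The smallest count of any of them was 488 in an adipose library and 233 in a muscle library, both in EGR1, and counting error alone gave a coefficient of variation (CV) of at most 2.35% in adipose tissue and 2.12% in muscle. Both are small beside the spread between calves described below. The labels of the tissues were checked with the muscle genes that could be paired with a symbol. The sarcomere protein gene TTN (XLOC_017327) was at 0 to 0.548 CPM in adipose libraries and 14 to 72.4 CPM in muscle, and IGFN1 (ENSBTAG00000046177) at 0 to 0.515 and 1040 to 4150 CPM. Adipocyte markers could not be paired with identifiers and were not checked.

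A pair of libraries stood apart in these loci. In the adipose tissue of CON calf 2, 49 of the 129 loci (38%) lay more than 1.5-fold from the tissue's median, 18 higher and 31 lower. In the muscle of CON calf 1 this held for 32 loci (24.8%), 11 higher and 21 lower. The adipose library of 5-HTP calf 8 had 15 such loci (11.6%), that of CON calf 1 had 7, and the other 12 libraries had 0 to 5 each. The main counts and the loci that rest on these libraries are given with and without them. Without both, the selection gave 127 loci, of which 109 were shared with the 129.

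The levels of the 129 loci covered a wide range (plot of the mean CPM in both tissues). The mean CPM ran from 100.2 to 3059 in adipose tissue with a median of 163.8, and from 100.2 to 2966 in muscle with a median of 150.4. By the mean over both tissues, 79 loci were under 200 CPM, 36 between 200 and 500, 10 between 500 and 1000, and 4 over 1000. ENSBTAG00000010156 was the most abundant, at 3059 ± 871 CPM in adipose tissue and 2966 ± 216 CPM in muscle (SD, n = 8). ENSBTAG00000017368 followed with 1340 ± 292 and 1540 ± 111 CPM, and ENSBTAG00000013468 with 1521 ± 309 and 1310 ± 219 CPM. ENSBTAG00000011184, also over 1000 CPM and named after its values were seen, had CVs of 24.1% in adipose tissue and 29.0% in muscle.

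**Figure D1:**
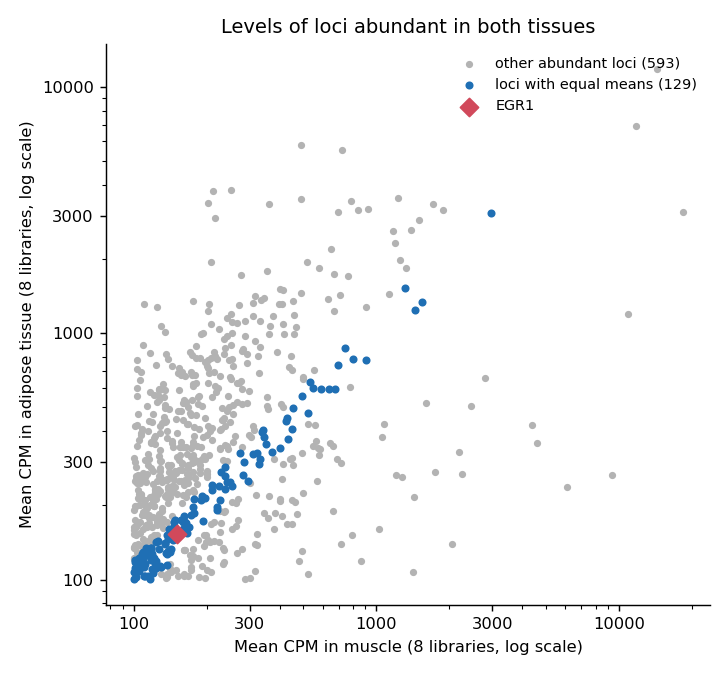
Mean CPM scaled to the library total in adipose tissue (vertical axis, log scale) against muscle (horizontal axis, log scale) for loci with an Ensembl identifier and at least 100 CPM in both tissues, each mean over 8 calves. The 129 selected loci lie in the narrow band around equality, from 100.2 to 3059 CPM, and the other 593 abundant loci lie outside it.

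Loci at the limits of the selection differed little from loci just beyond them. ENSBTAG00000007834 had a mean of 100.2 CPM in both tissues and was the lowest locus kept. ENSBTAG00000020309 missed the limit in adipose tissue with 99.42 CPM (107.1 CPM in muscle), and ENSBTAG00000011532 missed it in muscle with 98.86 CPM (115.3 CPM in adipose tissue). On the ratio, ENSBTAG00000000878 was kept at 1.199 (114.7 and 137.5 CPM in adipose tissue and muscle) and ENSBTAG00000040055 fell outside at 1.201 (123.1 and 102.4 CPM). With each calf left out of both tissues in turn, 82 of the 129 loci met the selection in all 8 sets.

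Within the limit, 85 loci had the higher mean in adipose tissue and 44 in muscle when counts were scaled to library totals, with a median ratio of 1.1. Libraries with the same calf number were also set side by side. In 70 loci, 3 to 5 of the 8 numbered pairs were higher in adipose tissue, and in a single locus, ENSBTAG00000008434 (listed under 2 identifiers, named after its values were seen), all 8 were, with means of 285.3 CPM in adipose tissue and 238 CPM in muscle. The SD over calves of the log2 ratio between the tissues had a median of 0.38 and ranged from 0.09 to 2.58. An equal mean therefore did not stand for an equal level in each calf.

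The equality of the tissues depended on the scaling. The 10 most counted loci took 5.55% to 7.59% of an adipose library and 21.3% to 27% of a muscle library, and a library total counts them in full. When the libraries of both tissues were scaled together by the trimmed mean of M-values (TMM), which sets the bulk of the loci level, the factors were 1.4 to 1.62 in adipose tissue and 0.537 to 0.719 in muscle. The log2 ratio of adipose tissue to muscle then moved from a median of 0.06 (range -0.26 to 0.26) to -1.14 (range -1.46 to -0.94) over the 129 loci, so that every one of them was lower in adipose tissue. With size factors of DESeq2 the median was -1.08 (range -1.39 to -0.87). The median over all tested loci with a count in both tissues was 1.33 with library totals, 0.13 with TMM and 0.20 with DESeq2. Applied on the TMM scale the same limits selected 187 loci, and on the DESeq2 scale 212, and 0 of the 129 were among either. With totals taken without the 10 most counted loci of each library, 208 loci met the limits and 75 of them were shared.

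**Figure D2:**
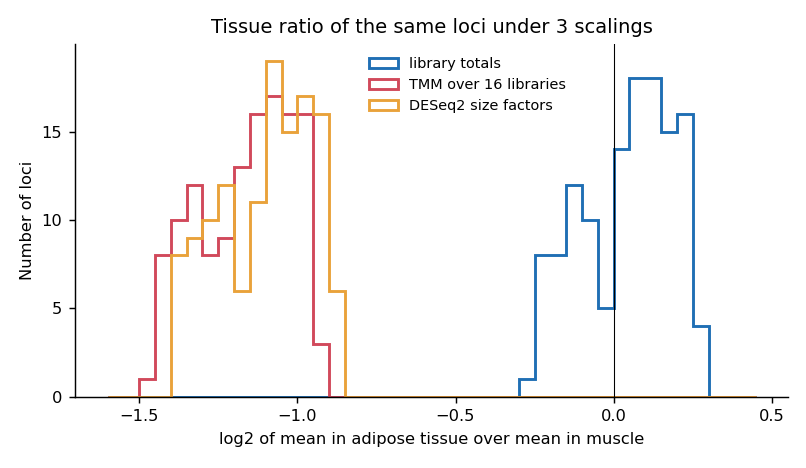
Histogram of the log2 ratio of the mean in adipose tissue to the mean in muscle for the 129 loci (horizontal axis), with the number of loci on the vertical axis, under library totals, TMM over 16 libraries and DESeq2 size factors. The ratios lie between -0.26 and 0.26 with library totals and at or below -0.87 under both other scalings.

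The spread between calves was measured within each tissue, on CPM normalized by TMM over the 8 libraries of that tissue, where the scaling between tissues plays no part. The CV of the 129 loci over 8 calves had a median of 19.9% in adipose tissue (range 5.76% to 88.6%) and 15.1% in muscle (range 6.07% to 180%). The other 593 abundant loci had medians of 22.5% and 16.8%. The CV was larger in adipose tissue for 92 of the 129 loci. It was at most 15% in both tissues for 19 loci and at most 25% in both for 85, and it exceeded 30% for 23 loci in adipose tissue and for 2 in muscle, EGR1 and ENSBTAG00000013103. Without adipose CON calf 2 and muscle CON calf 1, the CV was larger in adipose tissue for 99 loci, at most 15% in both tissues for 51 and at most 25% for 109, and it exceeded 30% for 11 loci in adipose tissue and 2 in muscle. The highest of the 8 values was a median of 1.85 times the lowest in adipose tissue and 1.58 times in muscle.

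A low spread in adipose tissue was only weakly tied to a low spread in muscle. Across the 129 loci, which share the same libraries and depths, Spearman's rho between the CVs was 0.139 and Pearson's r between their log2 values 0.27, a description over loci that are not independent. Of the 30 loci with the lowest CV in each tissue, 12 were the same. Unrelated lists of this length from 129 loci would share some by chance, a number that was not computed. Without the pair of libraries that stood apart, rho was 0.186, r was 0.37 and 9 of the 30 were the same. ENSBTAG00000031171 had the lowest CV in adipose tissue (5.76%), with 108 to 130 normalized CPM over the 8 calves, and 21.2% in muscle, with 60.4 to 130 normalized CPM. ENSBTAG00000017368 had the lowest CV in muscle (6.07%) and 22.8% in adipose tissue. ENSBTAG00000010156, the most abundant locus, was at 2766 to 3311 normalized CPM in muscle (6.96%) but reached 5532 in the adipose tissue of CON calf 2, where the other 7 calves lay between 2266 and 3442 (34.4%). Without that library its adipose CV was 16.6%. Without the muscle library of CON calf 1, which held the value of 60.4, the muscle CV of ENSBTAG00000031171 was 14%. By class of abundance (under 200, 200 to 500, 500 to 1000 and over 1000 CPM), the median CV was 19.9%, 17%, 22.8% and 23.5% in adipose tissue and 15.1%, 15.9%, 12.1% and 11.8% in muscle, so the classes over 500 CPM had the larger medians in adipose tissue and the smaller ones in muscle. The class over 1000 CPM holds 4 loci. Without adipose CON calf 2, the adipose CV in that class was 16.1% for ENSBTAG00000017368 and 12.6% for ENSBTAG00000011184. The class medians were not computed without that library, and the differences between classes were not tested.

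**Figure D3:**
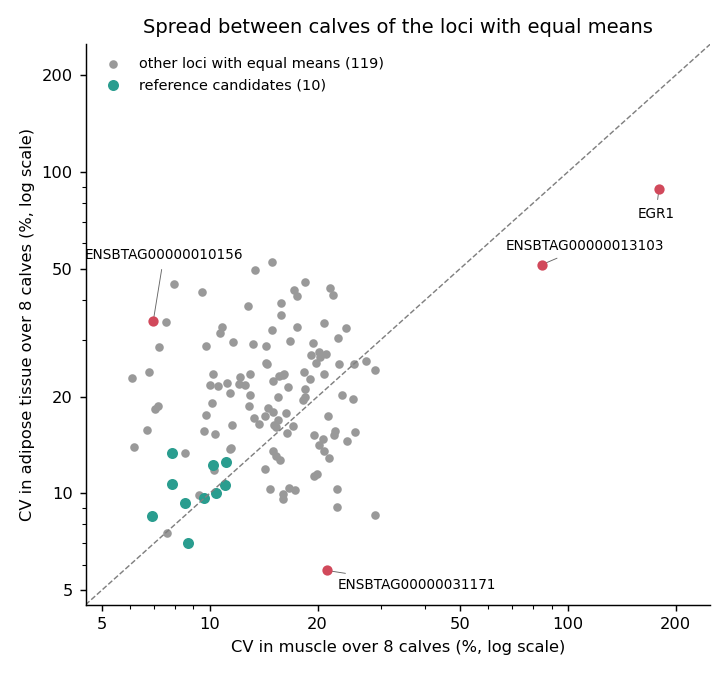
CV over 8 calves of TMM-normalized CPM in adipose tissue (vertical axis, percent, log scale) against muscle (horizontal axis, percent, log scale) for the 129 loci, with the 10 reference candidates in green and the dashed line at equal CVs. The candidates lie at or under 13.3% in both tissues, 92 loci lie above the line, and EGR1 lies far to the right at 180% in muscle.

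The spread was larger among CON calves than among 5-HTP-supplemented calves. Within CON the median CV over 4 calves was 21.5% in adipose tissue and 18.6% in muscle, and within 5-HTP it was 14.4% and 8.69%. The CV was larger in CON for 90 of the 129 loci in adipose tissue and for 108 in muscle. Without adipose CON calf 2 the CON median was 14.4% and 58 loci had the larger CV in CON, and without muscle CON calf 1 it was 10.5% and the number was 76. The other abundant loci moved in the same way, with CON medians of 24% and 21.2% that became 15.1% and 11.6% without those libraries. The values without a CON library rest on 3 CON calves and stand beside all 4 5-HTP calves. Without adipose 5-HTP calf 8 the 5-HTP median of the 129 loci was 10.7%, and without another adipose 5-HTP calf 15% to 16.6%. In muscle it was 7.69% to 8.28% with 1 5-HTP calf left out. The difference between the groups in spread was not tested.

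The most variable locus in both tissues was EGR1. Its equal means, 152 CPM in adipose tissue and 150 CPM in muscle, came from very unequal calves. In adipose tissue the normalized CPM was 163, 42.6, 166 and 131 in CON calves 1 to 4 and 47.6, 450, 190 and 32.0 in 5-HTP calves 5 to 8, a 14-fold range in which the groups overlapped. In muscle it was 162, 785, 93.7 and 43.0 in CON calves and 30.5, 22.3, 21.2 and 13.0 in 5-HTP calves, a 60.2-fold range in which all 4 CON values lay above all 4 5-HTP values. Calf 2 set the muscle mean. Without it the means were 169 CPM in adipose tissue and 52.3 CPM in muscle, a ratio of 3.23, and EGR1 met the selection in 6 of the 8 sets that left out 1 calf.

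ENSBTAG00000013103 came next in muscle, with CVs of 84.7% there and 51.5% in adipose tissue. Its normalized CPM in muscle was 2258, 883, 833 and 280 in CON calves and 282, 892, 360 and 416 in 5-HTP calves. In adipose tissue it was 1043, 412, 982 and 732 in CON calves and 1342, 1538, 564 and 283 in 5-HTP calves. The groups overlapped in both tissues, and the single value of 2258 in CON calf 1 stood above the rest of the muscle libraries. ENSBTAG00000010720 had the second largest CV in adipose tissue (52.6%), where CON calf 2 was at 281 normalized CPM and the other 7 calves at 76.1 to 119, and its CV in muscle was 15%. Without that calf its adipose CV was 15.1%. ENSBTAG00000017713 followed these in muscle (29.0%), where CON calf 1 was at 42.8 and the others at 89.8 to 145, and its CV in adipose tissue was 8.57%. Without CON calf 1 the muscle CV was 15% for this locus and 51.5% for ENSBTAG00000013103.

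Stability under the treatment was examined first with the test the study used, the likelihood ratio test of edgeR on counts within each tissue, fitted over all loci, and with an FDR of at most 0.20. All 129 loci passed the filter of at least 10 counts in at least 4 libraries. In adipose tissue 0 of the 129 loci were called (0.111% of 18872 loci tested), and 0 in the quasi-likelihood test of edgeR (1 of all loci). At an unadjusted P under 0.05 there were 5 and 1 of the 129 in these tests (4.42% and 3.69% of all loci). The 5 were ENSBTAG00000014884, ENSBTAG00000019781 and ENSBTAG00000021976, higher in 5-HTP calves, and ENSBTAG00000007740 and ENSBTAG00000010720, lower, and the 1 was ENSBTAG00000014884. Without adipose CON calf 2, ENSBTAG00000014884 alone of these 5 stayed at a P under 0.05, and the logFC of ENSBTAG00000010720 moved from -0.68 to -0.21 and that of ENSBTAG00000007740 from -0.61 to -0.22. DESeq2 called 1 at an FDR of at most 0.20, also ENSBTAG00000014884. The share of all loci that DESeq2 called was not computed, so this count has no background beside it. In muscle 1 of the 129 was called (0.218% of 15624 loci), EGR1, and 0 in the quasi-likelihood test of edgeR (1 of all loci). At an unadjusted P under 0.05 there were 3 and 2 of the 129 (4.92% and 4.46% of all loci). The 3 were EGR1 and ENSBTAG00000013103, lower in 5-HTP calves, and ENSBTAG00000009584, higher, and the 2 were EGR1 and ENSBTAG00000009584. At an unadjusted P of at most 0.01 there was 1 locus in adipose tissue, ENSBTAG00000014884 (1.13% of all loci), and 1 in muscle, EGR1 (1.56% of all loci). A single locus is 0.775% of the 129, which is above the share of all loci at the FDR threshold in muscle and below the shares at the P threshold. With 4 calves a group, a missed threshold does not show that a locus was stable.

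EGR1 was lower in the muscle of 5-HTP-supplemented calves, at 21.8 ± 7.13 normalized CPM against 271 ± 346 in CON calves (SD, n = 4). Its logFC was -3.64 (standard error 0.65). In edgeR the FDR was 0.00155 by the likelihood ratio test and 0.911 by the quasi-likelihood test, and DESeq2 gave 0.0489. The study also listed EGR1 as lower in the muscle of 5-HTP calves, at a larger FDR than the likelihood ratio test gave here. The reason for that difference was not tested. By quantitative PCR on the same RNA samples, the study reported the same direction and a similar fold change for EGR1 in muscle. Those samples come from the same calves. The exact two-sided permutation test over the 70 ways to choose 4 of 8 calves gave p = 0.0286, the smallest that it can give. Groups that do not overlap always give this value. EGR1 was named for its call in the same values, so it is no further evidence. Across the 8 fits that left out 1 calf, the logFC in muscle ranged from -3.99 to -2.20 and the FDR of the likelihood ratio test of edgeR was at most 0.0661, and without calf 2 the logFC was -2.20. In adipose tissue the logFC of EGR1 was 0.52 (FDR = 1, likelihood ratio test of edgeR), with a sign that rested on 5-HTP calf 6, since it was -0.48 without that calf.

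Whether the response differed between the tissues was tested by an interaction of tissue and treatment in 1 model of the 16 libraries. EGR1 was the single locus of the 129 called (0.0925% of 20534 loci tested), and also the single one at an unadjusted P of at most 0.01 (1.32% of loci). The term was -4.17 for muscle less adipose tissue (standard error 1.03, FDR = 0.133 by the likelihood ratio test in edgeR). The quasi-likelihood test in edgeR called 0 of the 129 (FDR = 1 for EGR1) and 0 of all loci. It put 1 of the 129 at an unadjusted P under 0.05 (3.77% of all loci). Both tissues came from the same calves, and this model takes the 16 libraries as independent. With the calf number as a replicate block the term of EGR1 was -2.46 (FDR = 0.886, edgeR) and 0 of the 129 loci were called.

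ENSBTAG00000014884 had the smallest P in adipose tissue and was named after its values were seen. It was at 139, 122, 188 and 127 normalized CPM in CON calves and at 284, 205, 232 and 276 in 5-HTP calves, means of 144 ± 30.4 and 249 ± 37.1 (SD, n = 4). All 4 5-HTP values lay above all 4 CON values, which follows closely from the P that singled out the locus among 129 and is no further evidence. The logFC was 0.79 (standard error 0.23), with an FDR of 0.338 in the likelihood ratio test of edgeR, 0.969 in the quasi-likelihood test of edgeR and 0.184 in DESeq2. In muscle the groups overlapped, with a logFC of 0.31 (FDR = 0.998, likelihood ratio test of edgeR).

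Groups that did not overlap were found in 2 of the 129 loci in adipose tissue (2.43% of all loci tested) and in 4 in muscle (2.59% of all loci tested). In adipose tissue the second was ENSBTAG00000047249, at 81.3 to 194 normalized CPM in CON calves and 196 to 215 in 5-HTP calves, and the CON calf at 81.3 was calf 2. In muscle, next to EGR1, ENSBTAG00000009691 was at 160 to 191 in CON and 141 to 156 in 5-HTP calves, ENSBTAG00000013113 at 472 to 547 and 555 to 608, and ENSBTAG00000009584 at 58.1 to 116 and 122 to 134. None of these 4 passed an FDR of 0.20 in the likelihood ratio test of edgeR. They too were named after their values were seen. ENSBTAG00000009584 had its value of 58.1 in CON calf 1, the muscle library that stood apart. Apart from EGR1 and ENSBTAG00000013103 (logFC -1.12, FDR = 0.900, likelihood ratio test of edgeR), the logFC of the 129 loci in muscle lay between -0.25 and 0.44, and in adipose tissue all lay between -0.68 and 0.79, or between -0.64 and 0.71 without adipose CON calf 2. The logFC of ENSBTAG00000013103 in muscle was -0.45 without CON calf 1, and the largest logFC of the 129 loci in that fit was 0.41. The median logFC was 0.10 in adipose tissue, with 83 loci higher and 46 lower in 5-HTP calves, and 0.04 in muscle, with 71 higher and 58 lower.

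How large a change the data leave possible was read from the 95% interval of the difference between 5-HTP and CON calves (limma, log2 CPM), and a locus was counted as bounded where the whole interval lay within 1.5-fold (0.58 on the log2 scale). This held for 49 of the 129 loci in adipose tissue (38%, against 17.1% of all loci and 32.2% of the other abundant loci). In muscle it held for 98 (76%, against 32.2% of all loci and 72.3% of the other abundant loci). The other abundant loci, which had at least 100 CPM in both tissues as well, are the closer comparison. In both tissues 40 loci were bounded, 58 in muscle alone, 9 in adipose tissue alone and 22 in neither. The interval reached a median of 0.46 to each side in adipose tissue and 0.35 in muscle, and 0 loci were bounded within 1.2-fold in either tissue. The narrowest interval reached 0.32 to each side in adipose tissue and 0.27 in muscle. Both are wider than a 1.2-fold bound, so the width alone fixed that count. Without adipose CON calf 2 the number within 1.5-fold in adipose tissue was 80, and without adipose 5-HTP calf 5 it was 31. Without muscle CON calf 1 the number in muscle was 120.

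**Figure D4:**
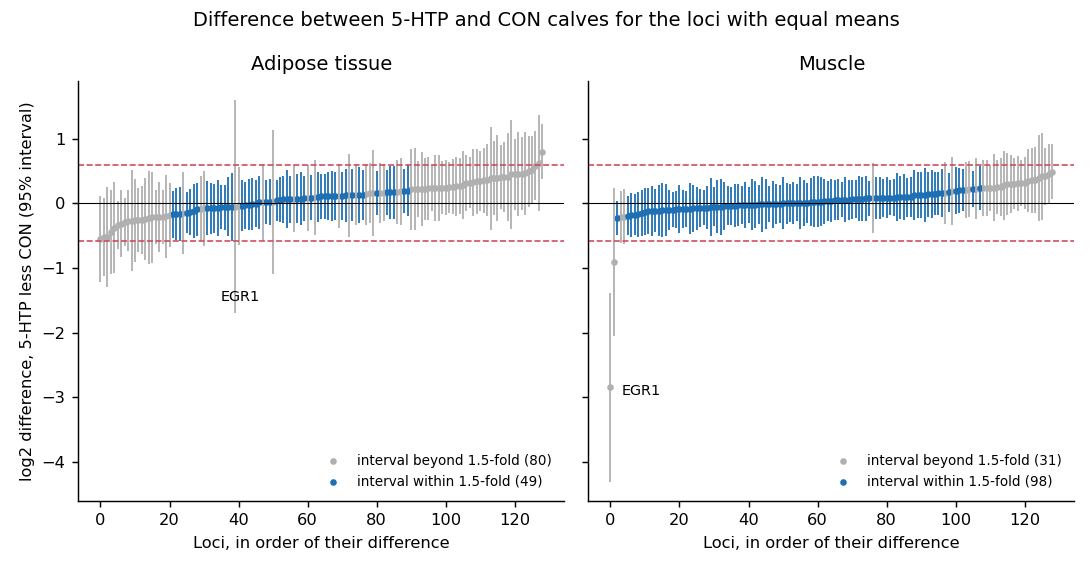
Difference between 5-HTP and CON calves in log2 CPM (vertical axis, points) with its 95% interval from limma (vertical lines) for the 129 loci in order of their difference (horizontal axis), in adipose tissue and in muscle, with dashed lines at 1.5-fold. The blue intervals within the lines number 49 in adipose tissue and 98 in muscle, and EGR1 in muscle is the locus far below the lines.

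Reference candidates were chosen from the 31 loci that stood under 1 Ensembl identifier and were bounded within 1.5-fold in both tissues. The 10 with the smallest CV, taking the larger of both tissues, are called candidates here, and since these values chose them their own CVs and differences are descriptions. Their mean levels were 117 to 496 CPM in adipose tissue and 107 to 452 CPM in muscle, with no fewer than 1598 and 1911 counts in any library. Their CVs were 7.03% to 13.3% in adipose tissue and 6.88% to 11.1% in muscle. The differences between 5-HTP and CON calves were -0.17 to 0.17 on the log2 scale in adipose tissue and -0.09 to 0.09 in muscle, and the bounds of the intervals ran from -0.53 to 0.58 and from -0.38 to 0.40.

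ENSBTAG00000005455 and ENSBTAG00000039374 led the 10. ENSBTAG00000005455 had adipose values of 144, 138, 146 and 122 normalized CPM in CON calves and 132, 143, 138 and 114 in 5-HTP calves. In muscle it was at 116, 126, 109 and 112 in CON and 109, 131, 121 and 120 in 5-HTP calves. The groups overlapped in both tissues, and the CVs were 8.53% and 6.88%. Its 95% interval for 5-HTP less CON was -0.40 to 0.28 on the log2 scale in adipose tissue and -0.22 to 0.33 in muscle (limma).

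ENSBTAG00000039374 had adipose values of 339, 307, 288 and 343 normalized CPM in CON calves and 343, 327, 304 and 350 in 5-HTP calves. In muscle it was at 303, 306, 256 and 235 in CON and 279, 276, 277 and 261 in 5-HTP calves. The highest value was 1.22 times the lowest in adipose tissue and 1.30 times in muscle, and the CVs were 7.03% and 8.68%. Its interval was -0.30 to 0.40 in adipose tissue and -0.30 to 0.29 in muscle (limma, log2 scale). Both loci were also among the 10 chosen by the geNorm M measure (the mean SD of the log2 ratios to the other 128 loci), by CON calves alone and by 5-HTP calves alone, which held for no other candidate. These choices drew on the same eligible loci and on the same values or parts of them, so their overlap is a description and no further evidence.

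The next 4 candidates were ENSBTAG00000017424, ENSBTAG00000013271, ENSBTAG00000019274 and ENSBTAG00000048761. ENSBTAG00000017424 ranged from 135 to 184 normalized CPM over the 8 adipose libraries and from 149 to 185 in muscle, and ENSBTAG00000013271 from 143 to 188 and from 132 to 176. ENSBTAG00000019274 ranged from 101 to 134 and from 93.4 to 131, and ENSBTAG00000048761 from 133 to 181 and from 117 to 150. With the pair above, these 4 made up the 6 candidates that were chosen in each of the 8 fits with a calf left out, and without both libraries that stood apart 8 of the 10 were chosen again. ENSBTAG00000027316 was chosen in 7 of these fits, ENSBTAG00000005166 in 6, ENSBTAG00000039851 in 5 and ENSBTAG00000005664, the most abundant candidate, in 2. The last had the widest spread of the 10 in adipose tissue (13.3%), from 377 to 575 normalized CPM, and 411 to 529 in muscle. ENSBTAG00000018639 had CVs of 7.53% and 7.59%, the lowest larger value of all 129 loci, but its counts stand under 2 Ensembl identifiers, so that the gene they belong to is uncertain and it was left out.

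**Figure D5:**
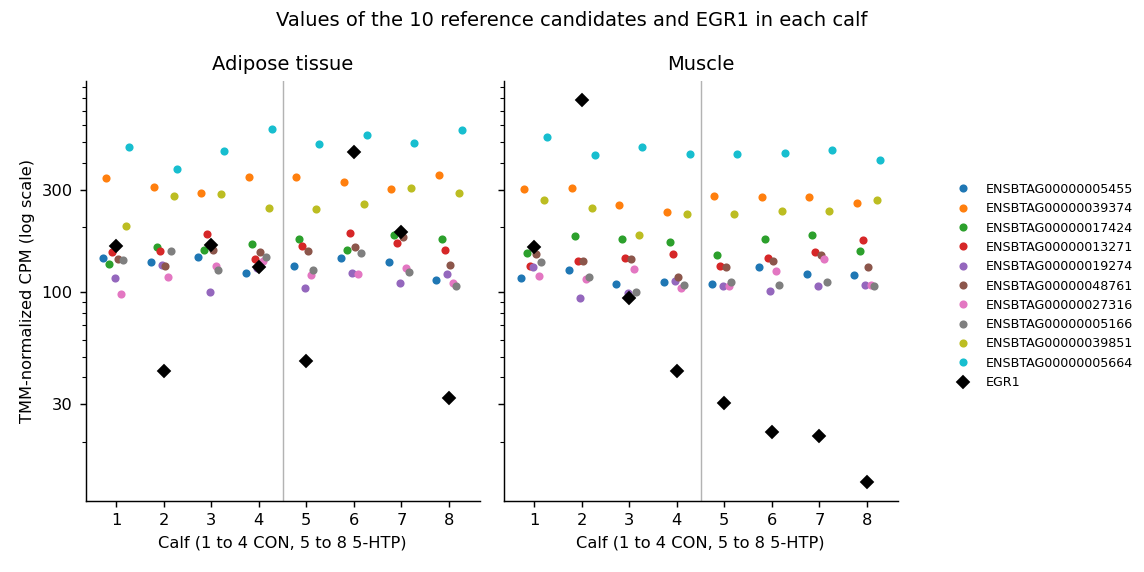
TMM-normalized CPM (vertical axis, log scale) of the 10 reference candidates and EGR1 in each calf (horizontal axis, CON left and 5-HTP right of the line), in adipose tissue and in muscle, 1 point for each library. Each candidate keeps within 1.53-fold over the 8 calves of a tissue, while EGR1 (black diamonds) runs from 32.0 to 450 in adipose tissue and from 13.0 to 785 in muscle.

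The log2 of the geometric mean of the 10 candidates departed from the mean of the tissue by -0.09 to 0.07 in adipose tissue and by -0.07 to 0.10 in muscle. The choice of loci with a low CV and the averaging over 10 loci both make this range narrow, so it describes the set and is no test of it. In the plot of candidate values by calf no candidate separated the groups in either tissue. Groups did not overlap in only 2.43% of all loci tested in adipose tissue and 2.59% in muscle. The candidates were also chosen for narrow intervals and low CVs, so this is a description. Between the tissues the candidates shared the dependence on scaling of the other loci, since their median log2 ratio of adipose tissue to muscle was 0.15 with library totals, -1.06 with TMM over 16 libraries and -0.997 with DESeq2 size factors.

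The choice was also made on the 4 CON calves alone and read in the 5-HTP calves. The 10 loci chosen in this way, from the same 31, shared 6 with the candidates. Their larger CV had a median of 12.7% in CON calves, which chose them, and 13.5% in 5-HTP calves. The 31 loci they were drawn from had a median of 12.6% in 5-HTP calves, and 4 of the 10 were under it. Among the 31 loci Spearman's rho between the larger CVs in CON and in 5-HTP calves was -0.04, a description over loci that share their libraries. These loci had been chosen for narrow intervals, which limits their spread, so this rho does not speak for the whole selection. Over all loci of the selection rho was 0.295. The median larger CV of all these loci in 5-HTP calves was 15.3%, and 8 of the 10 chosen on CON calves were under it. That count is a description too, since the 10 came from the loci with narrow intervals. The log2 geometric mean of the 10 in each 5-HTP calf lay 0.03 to 0.11 above the mean of CON calves in adipose tissue and -0.04 to 0.13 from it in muscle. The 31 loci had been drawn with intervals that used all 8 calves, so the 5-HTP calves were not set aside.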

How the data were processed

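RNA-Seq of 16 libraries (adipose tissue and muscle of 8 calves) was used. Per the study's methods and the submitters' processing notes, the authors checked reads with FastQC 0.11.7, trimmed them with Trim Galore 0.4.4, aligned them to ARS-UCD1.2 with HISAT2, built and merged transcript models with Cufflinks 2.2.1 and counted uniquely mapped reads with HTSeq. The deposited values are whole-number counts without normalization for 44265 rows, which give 42862 loci when the first row of each merged locus is kept. Of the 129 described, 18 stand under more than 1 identifier with the same counts. Everything else was computed here in R 4.3.3 with edgeR 4.0.16, limma 3.58.1 and DESeq2 1.42.0, with figures from Python 3.11.15 and matplotlib 3.10.9.

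Groups follow the labels for tissue and treatment. The study took both tissues from the same 8 calves, so equal numbers in the labels were read as the same calf, although deviations of same-numbered libraries over 722 loci correlated at only -0.396 to 0.362 (over 0.1 in 4 of 8 numbers). Loci reaching 10 counts in 4 or more libraries were tested with TMM factors and the likelihood ratio test of edgeR, the test of the study, with Benjamini-Hochberg FDR and a threshold of 0.20. The quasi-likelihood test is given beside it. Intervals come from limma trend on log2 CPM with a prior count of 2. Single loci were compared by exact permutation on log2 normalized CPM. The steps were tested on simulated data with 200 changed loci. No pair of libraries of a group agreed within sampling noise (chi-square per degree of freedom at least 20.5). Floors and counting CVs cover counting error only. Leaving out the pair of libraries that stood apart was added after seeing the data to the alternatives given in the closing section.

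The loci and lists were chosen with earlier results of these data known. Named loci are the 10 candidates, every called locus, the 3 most variable in each tissue, the 3 most counted, those nearest to each limit, reference genes with a symbol, and TTN and IGFN1. Others are marked as named after their values were seen. Lists by symbol (housekeeping gene families and cell type markers) could not be applied, since identifiers were not paired with symbols here. Coordinates and sequences of the loci were not analysed here.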

Additional observations from a re-analysis of the deposited data

Results flagged for a closer look

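In 5 of the 76 groups of 4 calves tested for the named loci (6.58%), the highest or lowest calf stood apart from the other 3 by Dixon's test, where chance gives about 1 in 20. Over all 129 loci this held for 36 of 516 groups (6.98%). EGR1 (ENSBTAG00000010069) was at 784.7 normalized CPM in the muscle of CON calf 2 against 43.04 to 162.3 in the other CON calves. Both flags in the adipose tissue of CON calf 2 came from a library that also stood apart in many other loci, with ENSBTAG00000010720 at 281 against 91.79 to 119.2 and ENSBTAG00000000878 at 87.77 against 116.3 to 120.9. The gap was small in size for ENSBTAG00000039374 in the muscle of 5-HTP calf 8, at 261.2 against 276.3 to 279.1, and for ENSBTAG00000007834 in the muscle of 5-HTP calf 6, at 98.96 against 107.7 to 109.1.

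The effect of 5-HTP on EGR1 differed between the tissues in the likelihood ratio test of edgeR, with a tissue by treatment term of -4.17 (muscle less adipose tissue, FDR = 0.133). All 4 muscle values of 5-HTP calves lay below those of CON calves, while the adipose values overlapped. Neither the quasi-likelihood test of edgeR nor the fit with the calf number called it.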

How the results depend on the processing

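Under the alternatives, 87 counts and medians stayed within 1.5 times of the value reported and 18 did not. A like count need not hold like loci, since TMM over 16 libraries selected 187 loci and shared 0 with the 129. The selection gave 212 loci with DESeq2 size factors (0 shared), 208 with totals without the 10 most counted loci (75 shared), 332 and 45 at limits of 50 and 200 CPM, and 63 and 257 at ratios of 1.1 and 1.5, with 122 to 134 when 1 calf was left out. In adipose tissue DESeq2 called 1 locus and the fits without 1 calf 0 to 1 (ENSBTAG00000014884 without calf 3, FDR = 0.114, edgeR). In muscle the quasi-likelihood test called 0 and the fits without 1 calf 1 to 2 (ENSBTAG00000013103 without calf 4, logFC -1.45, FDR = 0.107, edgeR, against -0.45 and FDR = 0.998 without calf 1). For DESeq2 and the fits without 1 calf, the share of all loci called was not computed. Within a bound of 1.2-fold lay 0 loci in either tissue, since no interval was narrow enough to fit. Within 1.5-fold there were 31 to 80 in adipose tissue and 78 to 120 in muscle when 1 calf was left out. The median CV was then 15.5% to 21.0% and 10.6% to 16%. The tissue by treatment term called 0 loci in the quasi-likelihood test. With CON calves or 5-HTP calves alone choosing, 6 and 4 of the 10 candidates were chosen again, and 7 to 10 with 1 calf left out. All of these choices drew on the same eligible loci, whose intervals used all the calves, so the overlaps are descriptions. The causes were not tested.

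With the replicate block the tissue by treatment term called 0 of the 129 loci and 19 of all loci, as many as without it, and the term of EGR1 was -2.46 (FDR = 0.886, edgeR). It changed no other call among the 129.

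For 19 named loci, 530 of 532 logFC values under the alternatives kept their call. Only EGR1 in muscle was called as reported, so only its values could reverse a called direction, and 0 did. The other values started uncalled, and the candidates among them were chosen for bounded differences, so keeping that state does not show stability. A change of sign was not counted there, as for EGR1 in adipose tissue (logFC 0.52 as reported, -0.48 without calf 6). The CV from counting error was at most 2.35%, and leaving out adipose CON calf 2 or muscle CON calf 1 gave the highest numbers within 1.5-fold (80 and 120).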

Other observations

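EGR1 and ENSBTAG00000013103, the most variable loci in muscle, had their highest and lowest adipose values in the same calves, 5-HTP calf 6 (450 and 1538 normalized CPM) and 5-HTP calf 8 (32.0 and 283). In muscle their highest values were in different CON calves, calf 2 for EGR1 (785) and calf 1 for ENSBTAG00000013103 (2258). The pair was noticed after the values were seen and was not tested.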
